A study of Mus musculus with 2 samples.

Results

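The nuclear genes of the mitochondrial respiratory chain were examined for R-loop peaks in mouse neural stem/progenitor cells (NSPCs). Members were the protein-coding genes of the GENCODE M1 annotation, which is built on NCBI37/mm9, whose symbols start with Nduf, Uqcr, Cox4, Cox5, Cox6, Cox7, Cox8 or Atp5, together with Sdha, Sdhb, Sdhc and Sdhd. This gave 92 genes of 22367 protein-coding genes. R-loops had been mapped by DRIP-seq, in which genomic DNA is cut with restriction enzymes, fragments that hold RNA:DNA hybrids are pulled down by the S9.6 antibody and sequenced. The cells were primary cultures from frontal brains of C57BL/6 mice at postnatal day 7, and the methods of the study state 48 h in 0.5 µM aphidicolin, which inhibits DNA polymerases and causes mild replication stress. The sample labels name no treatment. A single list of 22132 peaks was deposited for the DRIP sample, with a start and an end for each peak and no height, score or read count. The way from 3 biological replicates to this list is not given in the sources used here, the depth behind a peak is unknown, and no value below has a replicate error or a test. The list holds no expression values, so the cell type could not be checked against marker genes, and untreated NSPCs were not analysed here.

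The respiratory chain passes electrons from NADH and succinate to oxygen through complexes I to IV in the inner mitochondrial membrane, and the proton gradient that this builds drives ATP synthase (complex V). Apart from a few subunits encoded in mitochondrial DNA, the subunits are encoded by nuclear genes, most of them short and transcribed in nearly every cell type. An R-loop is an RNA:DNA hybrid with a displaced DNA strand that forms during transcription, often where the displaced strand is rich in G, and R-loops are known to be frequent at the start and end of transcribed genes.

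R-loop peaks lay in 52 of the 92 respiratory chain genes (56.5%), compared to 39.6% of all protein-coding genes, where a single shared base counted as an overlap. The transcription start site (TSS) lay in a peak in 29 members (31.5%), compared to 14.9% of protein-coding genes, and the transcription end site (TES) in 22 members (23.9%), compared to 10.9%. Longer genes have more room for a peak and respiratory chain genes are short, with a median length of 7.44 kb compared to 15.4 kb for all protein-coding genes, so counts were also set against genes of like length and promoter composition. All protein-coding genes were sorted into 10 strata of length and 10 strata of GC content in the promoter (2 kb to either side of the TSS), and the share with a peak among the other genes of each member's stratum was summed over the members. This matched expectation was 31.1 genes with a peak, and the observed count was 1.67 times as high. For the TSS the matched expectation was 12.6 genes and the ratio 2.31, and for the TES it was 11.8 genes and the ratio 1.87. The ratio at the TSS was smaller when GC content was taken within 500 bp of the TSS, at 1.68 with 17.2 genes expected.

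Members with a peak were spread over the whole chain. Classes were assigned by gene symbol, so Ndufa4 and Ndufa4l2 count with complex I by name alone, and Ndufb8 counts under both its entries. Of the 39 gene entries so classed as complex I subunits 23 had a peak (13.5 expected). All 4 genes of complex II, succinate dehydrogenase, had a peak (1.58 expected). Peaks were found in 4 of 8 genes of complex III (2.58 expected), in 10 of 18 genes of complex IV, cytochrome c oxidase (4.56 expected), and in 9 of 15 genes of ATP synthase (6.04 expected). Fewer than expected were seen for the 4 assembly factors of complex I, where 1 had a peak (1.35 expected), and for 4 further genes that carry a matching symbol but encode no subunit or are annotated from a copy, namely Cox4nb, Atp5s, Atp5sl and Atp5l-ps1, where 1 had a peak (1.45 expected).  With the assembly factors, Cox4nb, Atp5s and Atp5sl left out, 50 of 85 genes had a peak and the ratio was 1.77.

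**Figure D1:**
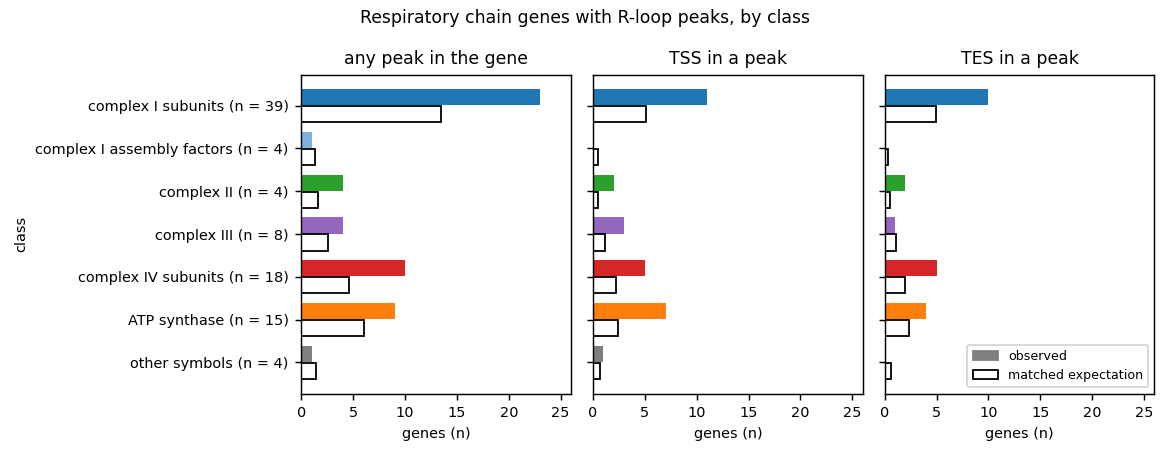
Number of respiratory chain genes with any peak (left), with the TSS in a peak (middle) and with the TES in a peak (right), by class as assigned from gene symbols. Filled bars give the observed number of genes and open bars the number expected from other protein-coding genes of like length and promoter GC content. Observed bars are longer than expected ones for complexes I, II, IV and ATP synthase in all 3 panels, and for complex III they are 4 to 2.58, 3 to 1.16 and 1 to 1.05.

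In 13 members both ends lay in a peak (4.26 expected), which were 14.1% of members and 4.28% of protein-coding genes. A single peak spanned the gene in 9 of them, and Uqcrc2, Atp5b, Ndufb9 and Sdha had separate peaks at each end. In 16 members the start alone lay in a peak (8.31 expected) and in 9 the end alone (7.52 expected). The remaining 14 had peaks inside the gene that touched neither end (11 expected), and this was the class in which members held a smaller share than all protein-coding genes, at 15.2% compared to 18.1%. Wholly inside peaks lay 9 members (9.78%), compared to 1.81% of protein-coding genes. These were Atp5g3, Ndufa3, Cox7a1, Cox8b, Ndufb7, Ndufa4l2, Atp5h, Ndufa2 and Cox8a. Among members with a peak, the median share of the gene inside peaks was 40.5%, compared to 10.4% among all protein-coding genes with a peak, which are longer.

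**Figure D2:**
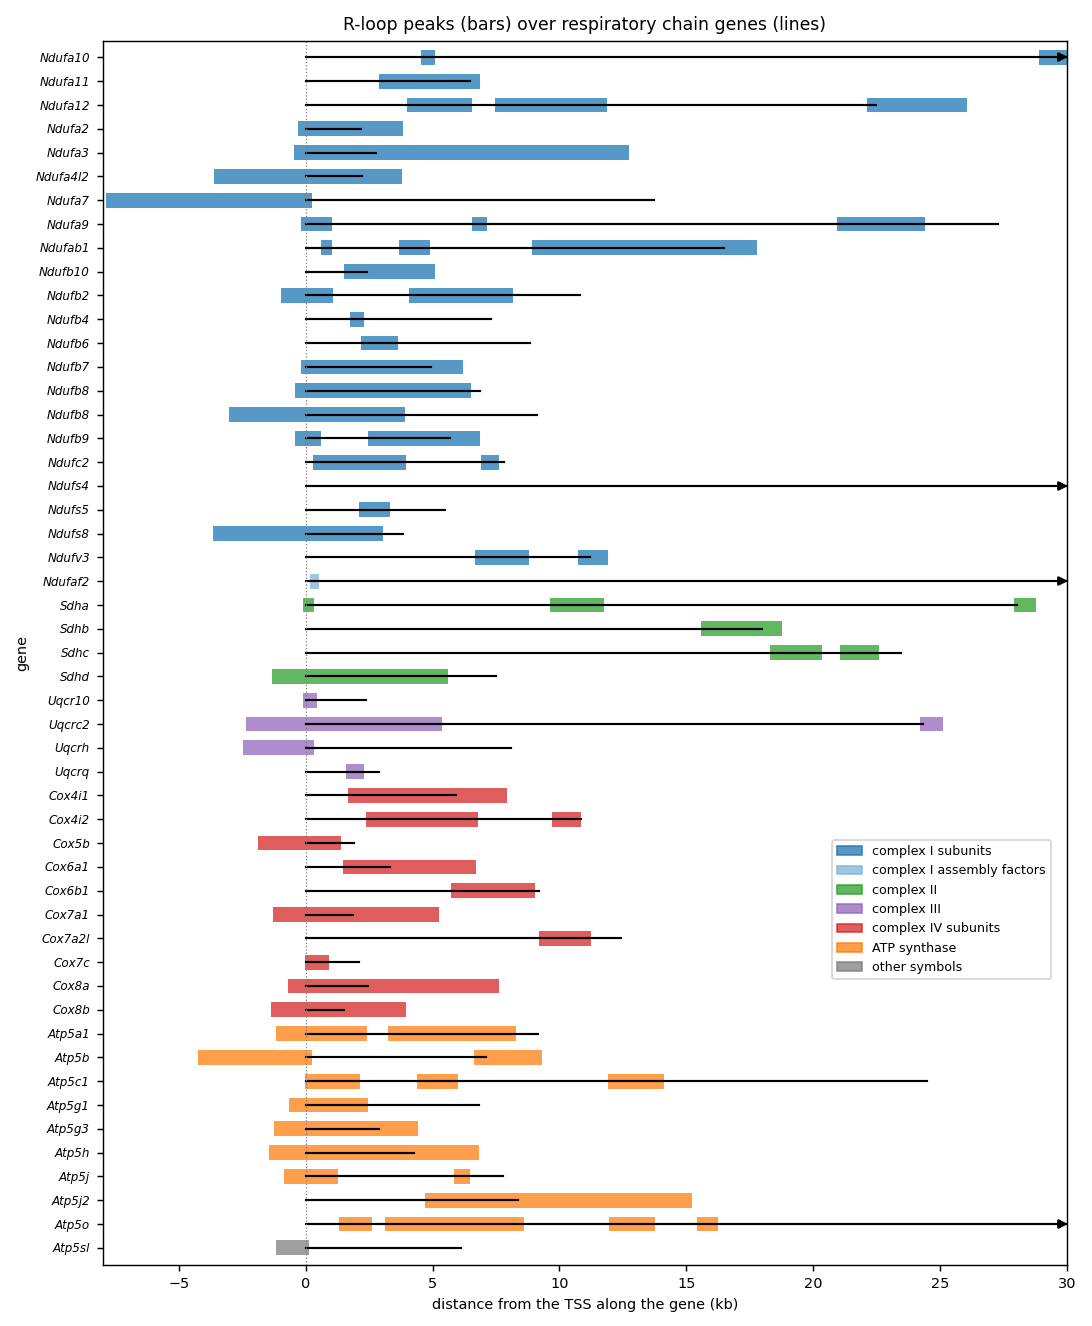
Peaks (bars) over respiratory chain genes with a peak (black lines, a row for each of 51 gene entries), aligned at the TSS (dotted line) and drawn in the direction of transcription in kb, with colour giving the class. Arrowheads mark 4 genes that run past the right edge, whose peaks beyond it, including the only peak of Ndufs4, are not drawn. Bars cross the dotted line in 29 rows, and 9 genes lie within a bar over their whole length.

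A peak of a few kb spans a short gene and little of a long one, and the highest coverage was seen in short members. Ndufab1, which encodes the mitochondrial acyl carrier protein that is also a complex I subunit, stood out among members of over 15 kb. Its 16.5 kb held 3 peaks of 8.86, 1.21 and 0.471 kb, and 56.1% of the gene lay in peaks. Long members without any peak were Cox7b2 (105 kb), Ndufs1 (33.2 kb) and Ndufv2 (22.8 kb). For Cox7b2 the nearest peak was 102333 bp away, for Ndufs1 22791 bp and for Ndufv2 1039 bp.

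**Figure D3:**
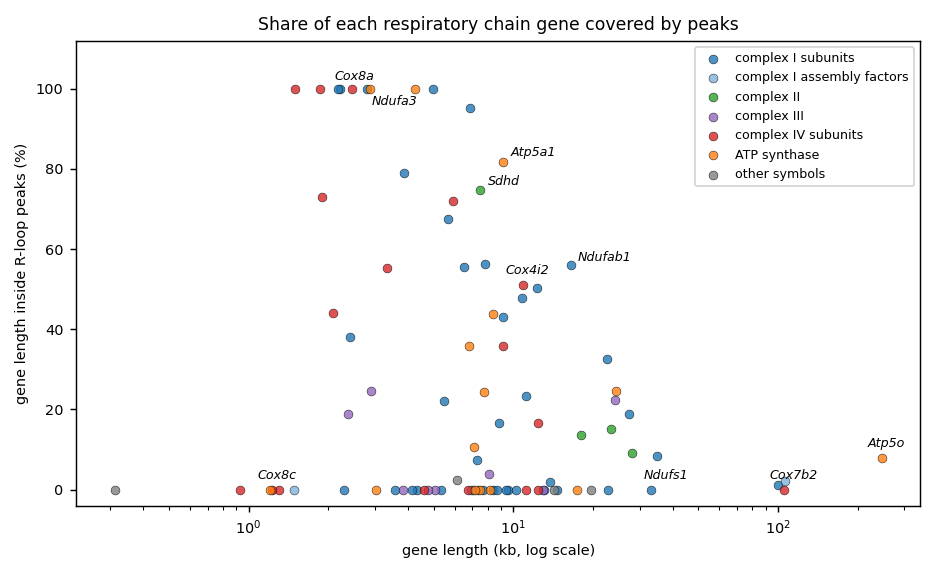
Share of each of the 92 genes that lies in R-loop peaks (%) against gene length (kb, log scale), with a point for each gene and colour giving the class. Points at 100% are the 9 genes that lie wholly in peaks, all under 5 kb long, and points at 0% are the 40 genes without a peak.

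In total 84 different peaks overlapped members. A single peak was found in 34 members, 2 peaks in 11, 3 peaks in 6 and more than 3 in 1. The peaks over members were wider than the list as a whole, with a median of 2.21 kb compared to 1.32 kb and a mean of 3.24 ± 2.69 kb compared to 2.21 ± 2.73 kb (SD over peaks, not over replicates). A size of 5 kb or more was reached by 23.8% of the peaks over members and by 9.85% of all peaks. All peaks include those outside genes, and a wide peak overlaps a gene more readily, so part of this difference is built in. Widths were not compared with those of peaks over matched genes. The 28 peaks over a member's TSS had a median of 4.31 kb and the 43 that reached neither end of a member 1.47 kb, but a wide peak reaches the end of a short gene more readily, so this order is partly built in. The GC content of peaks over members and of all peaks had the same median, 48.7%. Because DNA was cut before the pull-down, peak edges may follow restriction sites, and 29.8% of the edges of peaks over members lay within 100 bp of a site of the 5 enzymes used, compared to 27.8% of all peak edges. The share for random positions was not computed, so these values do not tell how many edges follow the cutting.

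By distance from the TSS, not scaled to gene length, the share of members in a peak was highest at the TSS, at 31.5%, compared to 13.7% for the matched expectation. At 10 kb upstream of the TSS it was 3.26% (5.9% expected), and at 10 kb downstream 16.3% (9% expected). With a median gene length of 7.44 kb, the position 10 kb downstream lies past the gene in most members. Around the end of the gene the share first reached its highest value 2400 bp upstream of the TES, at 28.3% (13.4% expected). It stood at 23.9% at the TES itself (12.8% expected) and reached 28.3% again 2000 bp beyond the TES (11% expected). At 10 kb beyond the TES it was 10.9% (6.63% expected). Members were above the matched genes at all positions examined downstream of the TSS and around the TES. Upstream of the TSS they were above them at 42 of 50 positions, for example with 8.7% compared to 5.83% at 8000 bp and 13% compared to 5.47% at 3000 bp, and below them at 8, mostly at the far edge.

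**Figure D4:**
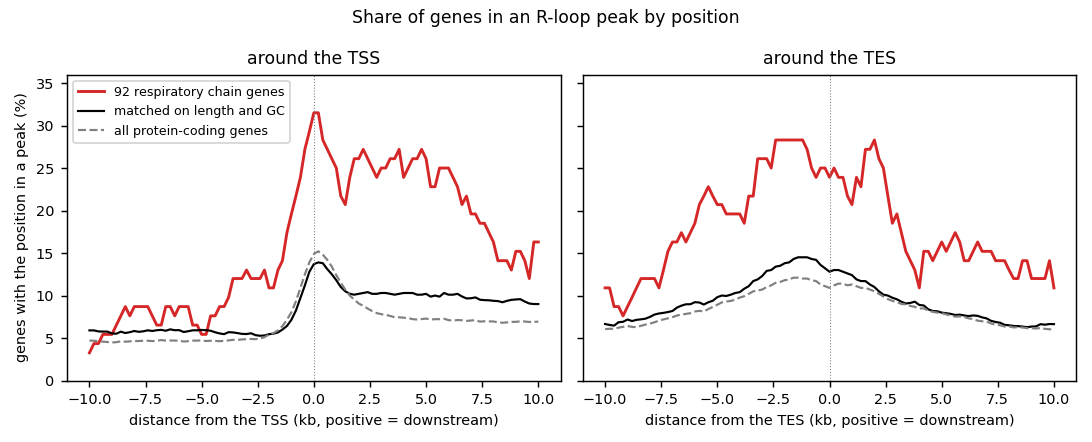
Share of genes (%) whose position at a given distance from the TSS (left) or TES (right), in kb with downstream positive, lies in an R-loop peak. The red line gives the 92 respiratory chain genes, the black line the expectation matched on length and promoter GC content, and the dashed line all protein-coding genes, and at the TSS they read 31.5%, 13.7% and 14.9%.

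Complex II joins the citric acid cycle to the respiratory chain, and its genes carried peaks at different places. Sdha (ENSMUSG00000021577), the flavoprotein subunit that oxidises succinate, occupies chromosome 13, positions 74459702 to 74487728, minus strand. It held a peak of 0.442 kb over its TSS, a peak of 2.14 kb inside the gene and a peak of 0.857 kb over its TES. Sdhb (ENSMUSG00000009863), the iron-sulfur subunit, occupies chromosome 4, positions 140517118 to 140535108, plus strand, and held a single peak of 3.18 kb over its TES that ran 761 bp past the gene. Sdhc (ENSMUSG00000058076), a membrane anchor, occupies chromosome 1, positions 173057296 to 173080734, minus strand, and held peaks of 1.53 and 2.02 kb in the part of the gene near its end, which touched neither site. Sdhd (ENSMUSG00000000171), the other anchor, occupies chromosome 9, positions 50404443 to 50411954, minus strand. A peak of 6.96 kb covered its TSS and 74.7% of its length. The start thus lay in a peak in Sdha and Sdhd, and the end in Sdha and Sdhb.

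Genes classed as complex I subunits by symbol are described by family, without a test between families. Among the 11 gene entries of the Ndufb family, accessory subunits of the membrane arm in which Ndufb8 counts under both its entries, 8 had a peak (3.01 expected) and 5 had the TSS in a peak (1.17 expected). Among the 15 genes of the Ndufa family 9 had a peak (5.52 expected), and among the 11 Ndufs and Ndufv genes 5 had a peak (4.44 expected) with a single TSS in a peak (1.52 expected). The 7 core subunits encoded in the nucleus, which carry the flavin and the iron-sulfur clusters through which electrons pass, had peaks in 2 genes, against 3.1 expected. Ndufs8 (chromosome 19, 3908870 to 3912717, minus strand) lay under a peak of 6.69 kb that began 3649 bp before its TSS and covered 79% of the gene. Among core subunits without a peak, Ndufs3 was 1428 bp and Ndufv1 23556 bp from the nearest peak. With 7 genes, the core set was below its expectation while the complex as a whole was above, and this difference was not tested.

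Ndufa3, an accessory subunit, lay under the widest peak over any member, of 13.2 kb, which began 455 bp before its TSS and ran 9964 bp past its TES on chromosome 7 (3568520 to 3581729). The same peak covered the starts of Tfpt and Prpf31. Atp5j2, a subunit of the membrane part of ATP synthase, was reached from its far side by a peak of 10.5 kb that covered 43.7% of the gene and its TES and ran 6858 bp beyond, into Cpsf4. Ndufa4l2 lay under a peak of 7.44 kb that extended 3628 bp before its TSS and 1601 bp past its TES and also overlapped Shmt2. From positions alone it cannot be told apart which of the genes under such a peak gave rise to the hybrid.

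Several subunits have a widely expressed form and a form used in particular tissues, such as Cox4i2 in lung, Cox6a2, Cox7a1 and Cox8b in heart and skeletal muscle, and Cox6b2, Cox7b2 and Cox8c in testis. Of 8 tissue-restricted genes 4 had a peak (2.09 expected), and of their 7 widely expressed partners 4 had a peak (1.65 expected). Both forms had a peak for Cox4i2 and Cox4i1 and for Cox8b and Cox8a. Cox7a1 lay wholly within a peak of 6.51 kb while Cox7a2 had none, and Ndufa4l2, a homologue of Ndufa4 that is known to be induced in hypoxia, had a peak while Ndufa4 had none. In the reverse order, Cox6a1 and Cox6b1 had peaks over 55.4% and 35.9% of their length, and Cox6a2 and Cox6b2 had none. Neither Cox7b2 nor Cox7b had a peak. Of the 4 tissue-restricted genes with a peak, 3 shared it with another gene, as that over Cox7a1 also overlapped Capns1 and that over Cox8b, of 5.31 kb, also overlapped Psmd13, the gene of a proteasome subunit. Of their 4 partners with a peak, Cox4i1 and Cox6a1 also shared it, with Gm20388 and Triap1. The transcription of either form in these cells was not measured in the list.

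Complex III was represented by Uqcrc2, Uqcrh, Uqcr10 and Uqcrq, whereas Uqcrc1, Uqcrfs1, Uqcrb and Uqcr11 had no peak. Uqcrc2, a core protein, carried a peak of 7.72 kb over its TSS and a peak of 0.902 kb over its TES. In ATP synthase, 7 of 15 genes had the TSS in a peak (2.41 expected), among them Atp5a1 and Atp5b, the catalytic head subunits alpha and beta, and Atp5c1, the central stalk subunit gamma. Atp5c1 (chromosome 2, 9977643 to 10002137, minus strand) held 3 peaks of 2.19, 1.6 and 2.23 kb, the first over its TSS. Of the 3 genes that encode the same c subunit of the rotor ring, Atp5g1 and Atp5g3 had the TSS in a peak and Atp5g2 lay 33336 bp from the nearest peak. Atp5e and Atp5l counted as genes without a peak although a peak began 19 bp and 25 bp from them, and both were picked out after their values were seen.

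Atp5o, the peripheral stalk subunit that confers sensitivity to oligomycin, had 11 peaks, the largest number of any member, and this number rests on its annotation. The gene is given a length of 247 kb because 1 transcript of 243 kb runs on through Cryzl1 and Itsn1, and 9 of the 11 peaks overlapped 1 of these genes. The transcript Atp5o-001, of 6.47 kb, held 2 peaks and no peak at its TSS. When the first protein-coding transcript stood in for every gene, a setting added once the data had been seen, 52 members still had a peak, the number of peaks fell to 75 and the ratio was 1.72. Next came 6 members with 3 peaks, namely Atp5c1, Ndufa9, Ndufab1, Ndufa12, Sdha and Ndufaf2. Ndufb8 is annotated under 2 overlapping gene entries, which shared a peak of 6.95 kb, and counting each locus once gave 51 of 90 genes.

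Neighbouring genes shared part of the peaks. Of the 84 peaks, 31 (36.9%) also overlapped a protein-coding gene outside the respiratory chain. Without the 9 peaks that Atp5o holds outside the transcript Atp5o-001, these were 22 of 75 (29.3%). Of all 16451 peaks over a protein-coding gene, 9.32% overlapped more than 1 such gene. This share was not matched on gene length or peak width, and members are shorter genes with wider peaks. Among the peaks over members, 9 covered the TSS of a member and that of another gene. There were 12 peaks that covered a member's TSS and no gene outside the chain. Counting only peaks over a single protein-coding gene, for members and all other genes alike, a setting added likewise, left 34 members with a peak, 1.55 times the matched expectation of 22. At the TSS it left 11 members, 1.62 times the matched expectation of 6.81. The ratio at the TSS was thus lower without shared peaks, and that for any peak was 1.55 compared to 1.67.

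Divergent gene pairs, in which 2 genes start within 1 kb of each other and run apart, were among the genes that shared peaks. A divergent partner was annotated for 23 members, and the TSS lay in a peak in 9 of them (39.1%, 3.29 expected). Among the 69 members without such a partner it lay in a peak in 20 (29%, 9.27 expected). For all protein-coding genes these shares were 26.3% of 1599 genes and 14% of 20768 genes. In 7 pairs both starts lay in a peak, namely Sdhd with Timm8b, Sdha with Ccdc127, Ndufb9 with Tatdn1, Uqcrh with Lrrc41, Atp5h with Kctd2, Ndufa7 with Rps28 and Ndufa2 with Ik. Timm8b encodes a chaperone of mitochondrial import and Rps28 a protein of the small ribosomal subunit. In addition, a peak of 2.12 kb covered the TSS of Atp5j and that of Gabpa, a transcription factor that acts on respiratory chain genes and whose start lies inside Atp5j on the other strand. Cox4i1 and Cox4nb form a pair within the list, and their shared start lay in no peak, although a peak of 6.27 kb began inside Cox4i1 and covered 72.1% of it. The DNA between the starts of such pairs is printed for 3 pairs with both starts in a peak and for Cox4i1, on the strand of the respiratory chain gene, since these few bases serve both genes. Capitals mark CTTCCGG or CCGGAAG, the letters bound by ETS factors such as the GABP complex.
Sdhd to Timm8b, mm9 chr9:50411955-50412005, minus strand: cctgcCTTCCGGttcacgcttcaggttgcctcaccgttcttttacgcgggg
Sdha to Ccdc127, mm9 chr13:74487729-74487756, minus strand: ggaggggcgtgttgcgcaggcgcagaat
Ndufb9 to Tatdn1, mm9 chr15:58765286-58765364, plus strand: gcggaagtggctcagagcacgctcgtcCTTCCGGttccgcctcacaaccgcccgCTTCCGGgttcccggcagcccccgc
Cox4i1 to Cox4nb, mm9 chr8:123192013-123192189, plus strand: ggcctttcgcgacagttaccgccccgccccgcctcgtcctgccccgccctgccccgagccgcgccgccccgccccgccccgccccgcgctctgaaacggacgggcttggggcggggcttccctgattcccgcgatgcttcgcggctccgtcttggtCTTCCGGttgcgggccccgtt
The stretch between Cox4i1 and Cox4nb had the highest GC content of these, 76.3% with 27 CpG over 177 bases, and no peak, compared to 60.8% with 5 CpG over 51 bases for Sdhd, 67.9% with 3 CpG over 28 bases for Sdha and 72.2% with 10 CpG over 79 bases for Ndufb9.

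R-loops are known to form where the displaced strand is rich in G, so GC skew, (G - C)/(G + C), was taken on the coding strand over the first 1 kb of each gene. In the 29 members with the TSS in a peak the median was 0.0843 and 25 had a positive skew (86.2%). In the 63 other members the median was 0.0554 and 46 had a positive skew (73%). For all protein-coding genes the medians were 0.0649 with the TSS in a peak and 0.0345 without, and 75% and 63.1% were positive. Single members departed from this order, as Cox7a1 lay wholly in a peak with a skew of -0.223, whereas Ndufa1, on the X chromosome and without a peak, had a skew of 0.212. None of the 3 members on X, Ndufb11, Ndufa1 and Cox7b, had a peak, and 0.635 would be expected.

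As a second measure on another scale, the largest excess of G over C was taken in any 60 bases of the 2 kb downstream of the TSS. Its median was 22 in members with the TSS in a peak and 21 in the others, compared to 24 and 21 in all protein-coding genes. The stretches printed here are intronic, on the coding strand, and show such an excess of G with and without a peak, with capitals marking runs of at least 3 G. The first 3 lie in a peak that covers the TSS, and the last pair come from genes whose TSS lies in none.
Atp5g1, mm9 chr11:95936423-95936482, minus strand, 503 bases after the TSS: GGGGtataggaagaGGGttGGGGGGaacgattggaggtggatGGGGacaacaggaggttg
Ndufs8, mm9 chr19:3911797-3911856, minus strand, 862 bases after the TSS: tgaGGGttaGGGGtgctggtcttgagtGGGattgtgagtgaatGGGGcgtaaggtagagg
Sdhd, mm9 chr9:50411739-50411798, minus strand, 157 bases after the TSS: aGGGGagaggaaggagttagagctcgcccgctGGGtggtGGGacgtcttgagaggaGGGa
Sdhb, mm9 chr4:140517584-140517643, plus strand, 467 bases after the TSS: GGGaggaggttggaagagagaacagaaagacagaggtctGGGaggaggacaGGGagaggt
Cox8c, mm9 chr12:104137730-104137789, plus strand, 215 bases after the TSS: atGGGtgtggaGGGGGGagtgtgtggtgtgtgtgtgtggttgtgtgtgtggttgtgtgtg
Atp5g1 had 32 G and 3 C in its stretch and Ndufs8 30 G and 3 C. Cox8c, the testis form of subunit VIII, had 34 G and 0 C, the largest excess among the 92 members, and its nearest peak was 20564 bp away. Outside the marked runs its stretch is mostly a repeat of G and T, so its excess comes largely from G that is not clustered. Sdhb had 30 G and 4 C and a peak at its end alone.

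Promoters from 250 bases before to 50 bases after the TSS were searched on both strands for letters bound by 3 factors known to act on respiratory chain genes. The NRF1 letters GCGCATGC, or GCATGCGC on the other strand, which overlap each other in the full palindrome, were found in 11 members (12%), compared to 3.3% of all protein-coding promoters. They were in 0 of the 29 members with the TSS in a peak and in 11 of the 63 others (17.5%). The remaining protein-coding genes showed the other order, with 4.58% of those with the TSS in a peak and 3.03% of those without. The ETS letters CCGGAAG were in 18 members (19.6%, compared to 10.8% of all promoters), in 6 of 29 with the TSS in a peak and in 12 of 63 others. The YY1 letters ATGGCGGC were in 6 members (6.52%, compared to 2.73%), in 4 of 29 and in 2 of 63. In the remaining protein-coding genes the ETS letters were in 18% of those with the TSS in a peak and 9.46% of those without. For the YY1 letters these shares were 5.49% and 2.23%, so the order seen in members was also that of the other genes. A match of letters is a description and not a binding site, and the splits were not tested. Windows around the NRF1 letters, in capitals, are printed for 4 members whose TSS lay in no peak.
Cox6a1, mm9 chr5:115799106-115799145, minus strand: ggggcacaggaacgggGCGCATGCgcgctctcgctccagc
Atp5g2, mm9 chr15:102501497-102501536, minus strand: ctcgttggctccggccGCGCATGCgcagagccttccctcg
Ndufa6, mm9 chr15:82184781-82184820, minus strand: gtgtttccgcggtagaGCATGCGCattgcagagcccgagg
Ndufaf4, mm9 chr4:24825101-24825140, plus strand: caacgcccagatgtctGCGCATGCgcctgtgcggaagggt
Of these genes Cox6a1 had a peak over its end, and Atp5g2, Ndufa6 and Ndufaf4 had no peak.

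Genes that serve the respiratory chain without being members showed peaks in larger numbers than matched genes in each of the 3 lists examined. Of 37 genes for assembly factors and electron carriers 21 had a peak (14.7 expected) and 8 had the TSS in a peak (4.75 expected). Cycs, which encodes cytochrome c, had a peak over its TSS. Of 12 regulators of mitochondrial genes 9 had a peak (6.84 expected) and 6 had the TSS in a peak (2.68 expected), namely Nrf1, Gabpa, Gabpb1, Esrra, Yy1 and Ppargc1b, whereas Ppargc1a, a coactivator of mitochondrial biogenesis, and Tfam, which packages mitochondrial DNA, had none. Of 13 citric acid cycle genes 11 had a peak (6.3 expected), and 2 had the TSS in a peak (1.92 expected). The TES lay in a peak in 5 of the 13, compared to 10.9% of all protein-coding genes, and no matched expectation was computed for it.

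For comparison, 2 other groups of short, widely transcribed genes were counted the same way. Of 77 genes for mitochondrial ribosomal proteins 43 had a peak, 1.71 times the 25.2 expected, and of 42 genes for proteasome subunits 28 had a peak, 1.8 times the 15.6 expected. The ratio of 1.67 for respiratory chain genes was thus no larger. At the TSS the ratios were 1.67 for mitochondrial ribosomal proteins and 1.44 for the proteasome, compared to 2.31 for the respiratory chain, and at the TES they were 2.31 and 2.03, compared to 1.87. The TSS ratio of the respiratory chain was 1.68 with GC content taken within 500 bp and 1.62 with peaks over a single protein-coding gene. The 2 other groups were not counted under these settings, and their TSS ratios rest on 18 and 8 genes. Whether these groups differ was not tested. Transcription was not part of the matching, so how much of each ratio goes with transcription was not tested.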

How the data were processed

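Peaks of the DRIP sample were analysed as the authors deposited them, in 1 list that gives starts and ends in base pairs and neither counts nor scores. Reads had been trimmed by the authors (Trim Galore 0.6.6, per the submitters' processing notes), aligned to NCBI37/mm9 and freed of duplicates, and peaks had been called with a Hidden Markov Model on DNA digested with 5 restriction enzymes. The input library, GRO-seq and ESC data were not used here.

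Peaks were set against the mm9 genome and GENCODE M1, 37273 genes on chromosomes 1 to 19, X and Y. Calculations used Python 3.11.15, numpy 2.4.6, scipy 1.17.1 and pysam 0.24.0, and figures matplotlib 3.10.9. The counting was checked on simulated data. The members and lists were chosen with earlier results of these data known. Genes named are the Sdh genes, core complex I subunits, isoform pairs, the members with the most peaks, the largest covered share or the widest peaks, the longest without a peak, divergent pairs with both starts in a peak, and lists by class. Other members and genes were named after their values were seen. Genes were matched on strata of length and promoter GC content, without random draws. Alternatives were peaks of at least 1 kb, merged peaks, other overlap rules, other site limits, other matching, subunits alone and autosomes alone. The result for 1 member is not reported by name here.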

Additional observations from a re-analysis of the deposited data

How the results depend on the processing

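Under 18 alternatives, of which 3 were chosen after seeing the data, 66 values were recomputed. In all 29 ratios among them the observed count stayed above the expectation, which in 2 of them was unmatched. These ratios are for any peak and for the TSS. For the TES only the count was recomputed, so how far its ratio depends on the processing is not known. The ratio for any peak lay between 1.39 (GC content within 500 bp of the TSS) and 1.85 (peaks of at least 1 kb). These lay inside the 95% Wilson interval of the observed share over genes, 1.37 to 1.96, which covers counting error only. Such an interval takes genes as independent, which the Ndufb8 entries with their shared peak are not, and it holds no error over replicates. The ratio for the TSS lay between 1.62 and 2.46, with an interval of 1.68 to 3.05. It fell below this interval with peaks over a single protein-coding gene and lay at its lower limit with GC content within 500 bp (1.68). The values that moved came from counting only peaks over a single protein-coding gene, which is 1 of the 3 settings added later. It gave 34 members with a peak, 11 with a peak over the TSS, 9 with a peak over the TES, 52 peaks over members and a ratio of 1.62 for the TSS. That setting drops every shared peak by construction. The other counts stayed within 1.5 times the reported ones, with 38 to 61 members with a peak. No paired analysis was possible because 1 peak list was used and no result comes from a test between groups. With no height or depth in the list, weak and strong peaks count alike, and a gene without a peak may hold R-loops below the limit of the peak calling.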
